A study of Mus musculus with 45 samples.

Results

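The cell cycle and DNA replication genes described here are a set of 46 mouse genes chosen by symbol, 21 that act in DNA replication and 25 that act in mitosis. Of the 46, 44 were measured by a probe with a symbol on the arrays, 20 replication and 24 mitotic genes, out of 19494 genes with a symbol. Ccnb1, which encodes cyclin B1, and Mcm7, a subunit of the replicative helicase, were not analysed here because no probe carried their symbol. Each measured gene had a single probe.

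The study measured RNA of whole ileum, the last stretch of the small intestine, from mice of 11 weeks, on 45 arrays in 9 groups of 5. All values are log2 intensities, so a difference of 1 is a doubling, and n = 5 mice per group throughout. IEC-KO stands for a knockout in intestinal epithelial cells. Which promoter drove Cre, the strain and the sex of the mice are not given in the sources used here.

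Floxed controls were Fadd fl/fl and Casp8 fl/fl mice, whose gene is flanked by recombination sites and intact. FADD IEC-KO and CASP8 IEC-KO mice lacked FADD or caspase-8 in the epithelium. FADD is the adaptor that joins death receptors to caspase-8, and caspase-8 is the protease that starts apoptosis and restrains necroptosis. FADD IEC-KO Mlkl-/- and CASP8 IEC-KO Mlkl-/- mice also lacked MLKL, the protein that breaks the membrane in necroptosis, in all tissues. FADD IEC-KO Zbp1-/- mice lacked ZBP1, a nucleic acid sensor upstream of RIPK3, in all tissues. FADD IEC-KO RIPK3 IEC-KO mice lacked FADD and RIPK3, the kinase that activates MLKL, in the epithelium. Triple mutants were FADD IEC-KO CASP8 IEC-KO Mlkl-/-, as their titles state, while their genotype field lists no FADD. Only Fadd fl/fl and Casp8 fl/fl mice served as controls, and no group lacked MLKL, ZBP1 or RIPK3 alone.

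Within a group the mice are numbered 1 to 5 in the order of their records, which is a name and no order in time. Fadd read 7.27 to 7.61 across both floxed groups, and 5.34 to 6.53 in the 5 groups labelled FADD IEC-KO, apart from 7.32 in mouse 1 of FADD IEC-KO. Casp8 read 11.24 to 11.49 in Casp8 fl/fl mice and 9.46 to 10.57 in the 3 groups labelled CASP8 IEC-KO, apart from 10.89 in mouse 1 of CASP8 IEC-KO. The comparisons that use these 2 mice are given with and without them. The titles carry numbers either under 100 or of 200 and over. All 5 FADD IEC-KO Mlkl-/- mice fell in the lower range and all 5 triple mutants in the higher one, while the other groups held both. The ileal genes Fabp6, a bile acid binding protein, and Slc10a2, the ileal bile acid transporter, read 11.89 to 12.95 and 11.22 to 11.94 on all 45 arrays. Nothing in the labels says how littermates were spread over groups, so p-values measure the spread between these mice.

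In the ileum, stem cells and their transit-amplifying daughters divide in the crypts, and cells stop dividing as they move onto the villus. As a cell enters S phase, E2F factors switch on genes for origin licensing, the replication fork and nucleotide supply. Later, in G2 and M phase, the MuvB complexes with B-MYB and FOXM1 switch on cyclins, mitotic kinases and spindle genes, many through a short promoter element called the cell cycle genes homology region, or CHR. In whole tissue, fewer dividing cells and less RNA per dividing cell cannot be told apart.

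Part of the promoters in each set hold letters that match these elements. The sequences below show such matches in some of the genes whose levels moved. Whether a match goes with a change in level was not tested. Promoter sequences are those of RefSeq on build GRCm38.p6, and 39 of the 46 genes had a window there. The first pair gives the 250 bases before the transcription start, on the plus strand, of a replication gene and a mitotic gene described below. Capitals mark an E2F-type match in Cdca7, at chr2:72475969-72476218, and a CCAAT box and a CHR match in Kif11, at chr19:37376132-37376381, both read on the opposite strand there.
Cdca7: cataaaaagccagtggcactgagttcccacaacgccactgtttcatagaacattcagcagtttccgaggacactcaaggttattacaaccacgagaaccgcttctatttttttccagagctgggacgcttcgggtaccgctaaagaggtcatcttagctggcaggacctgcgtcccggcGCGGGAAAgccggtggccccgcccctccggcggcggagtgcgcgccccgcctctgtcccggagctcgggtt
Kif11: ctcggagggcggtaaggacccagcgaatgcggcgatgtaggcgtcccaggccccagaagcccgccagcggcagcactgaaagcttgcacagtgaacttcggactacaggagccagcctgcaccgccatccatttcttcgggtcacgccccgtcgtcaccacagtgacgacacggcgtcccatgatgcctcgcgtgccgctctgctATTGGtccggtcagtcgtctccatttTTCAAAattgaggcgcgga

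The motifs searched on both strands were CHR, with the letters TTTGAA, the CCAAT box, and an E2F type with any of TTTGGCGC, TTTCCCGC, TTTGCCGC or TTTCGCGC. No motif contains another, though matches of CCAAT and TTTGAA can share a base at their ends. In the window from 250 bases before to 50 after the start, 16 of 21 mitotic genes held TTTGAA (76.2%), against 3 of 18 replication genes (16.7%) and 20.2% of 27025 genes. The E2F type stood in 8 of 18 replication genes (44.4%), 1 of 21 mitotic genes (4.76%) and 2.61% of all genes. CCAAT was found in 19 of 21 mitotic and 12 of 18 replication genes, against 41.1% of all genes. TTTGAA and CCAAT stood together in 16 of 21 mitotic genes, 2 of 18 replication genes and 7.97% of all genes. A match is a description of letters and not a bound site. When only the 250 bases before the start were read, TTTGAA was left in 7 of 21 mitotic genes and 18.3% of all genes, and the E2F type in 7 of 18 replication genes.

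**Figure D1:**
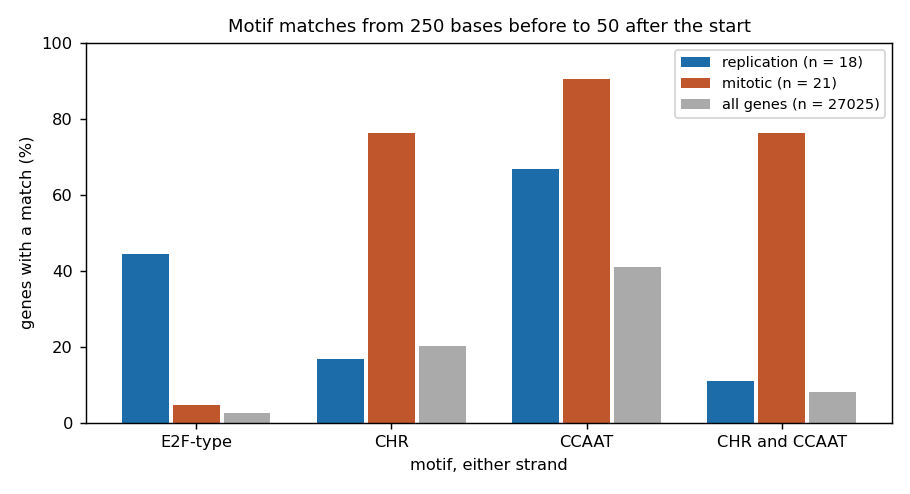
Share of genes (%) with each motif on either strand between 250 bases before and 50 after the start, for 18 replication genes, 21 mitotic genes and all 27025 genes with a promoter window. The E2F type is most frequent in the replication genes (44.4%), and CHR, alone or with CCAAT, in the mitotic genes (76.2%).

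Sites of 30 bases follow for every member that rose or fell in one of 8 comparisons and held a match, a choice made after the values were seen. These set each single knockout against its floxed control, and the added losses of MLKL, ZBP1 or RIPK3 against the single knockouts. The others set triple mutants against each double mutant with loss of MLKL. The mitotic genes are Ccnb2 (cyclin B2), Kif11, Hmmr and Mki67, with TTTGAA in capitals and each site printed on the strand that reads TTTGAA.
Ccnb2, chr9:70421704-70421733, minus strand: cagggactagaaTTTGAAaataagactgta
Ccnb2, chr9:70421533-70421562, minus strand: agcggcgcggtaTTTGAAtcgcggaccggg
Kif11, chr19:37376351-37376380, minus strand: ccgcgcctcaatTTTGAAaaatggagacga
Hmmr, chr11:40733412-40733441, minus strand: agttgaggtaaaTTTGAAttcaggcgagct
Mki67, chr7:135716478-135716507, minus strand: ttagcgccagaaTTTGAAccgccgttttgg
Mki67, chr7:135716460-135716489, minus strand: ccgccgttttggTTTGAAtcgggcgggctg

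The replication genes are Cdc6, Pola1, Uhrf1 and Cdca7, with the E2F-type letters in capitals.
Cdc6, chr11:98908002-98908031, minus strand: accccaggcgaTTTCCCGCtctccaccggc
Pola1, chrX:93632275-93632304, plus strand: gcgggagtgcaTTTGGCGCcctgtgatgac
Uhrf1, chr17:56304117-56304146, plus strand: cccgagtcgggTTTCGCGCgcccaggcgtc
Cdca7, chr2:72476137-72476166, minus strand: gggccaccggcTTTCCCGCgccgggacgca
The sites of Ccnb2 and Hmmr closest to the start lay 5 and 9 bases after it, and that of Kif11 began 19 bases before it. In all, 4 of 8 called replication genes with a window held the E2F type and 4 of 6 called mitotic genes held TTTGAA. The same held for 8 of 18 replication genes and 16 of 21 mitotic genes with a window, called or not.

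To place the groups, each gene was centred on its mean in the 10 floxed mice and the genes of a set were averaged in each mouse. The replication mean was highest in FADD IEC-KO, at 0.41 ± 0.20 (SD, n = 5), followed by the double mutants without FADD and MLKL at 0.33 ± 0.16 and CASP8 IEC-KO at 0.25 ± 0.14. Triple mutants followed at 0.19 ± 0.13, FADD IEC-KO RIPK3 IEC-KO at 0.15 ± 0.15, CASP8 IEC-KO Mlkl-/- at 0.12 ± 0.12 and FADD IEC-KO Zbp1-/- at 0.11 ± 0.25. Fadd fl/fl mice stood at 0.07 ± 0.16 and Casp8 fl/fl mice at -0.07 ± 0.20. Neighbours in this order lay closer together than their standard deviations, and every group overlapped the next.

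The mitotic mean had nearly the same top and another bottom. Loss of FADD gave 0.37 ± 0.26 alone and 0.31 ± 0.15 with loss of MLKL, and loss of caspase-8 gave 0.17 ± 0.20 alone and 0.13 ± 0.11 with loss of MLKL. The floxed groups stood at 0.08 ± 0.28 (Fadd fl/fl) and -0.08 ± 0.16 (Casp8 fl/fl), with FADD IEC-KO RIPK3 IEC-KO at 0.08 ± 0.21. Triple mutants at -0.03 ± 0.12 and FADD IEC-KO Zbp1-/- at -0.04 ± 0.30 lay between the 2 floxed groups. In triple mutants, 4 mice sat between 0.02 and 0.03 and mouse 2 at -0.25.

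**Figure D2:**
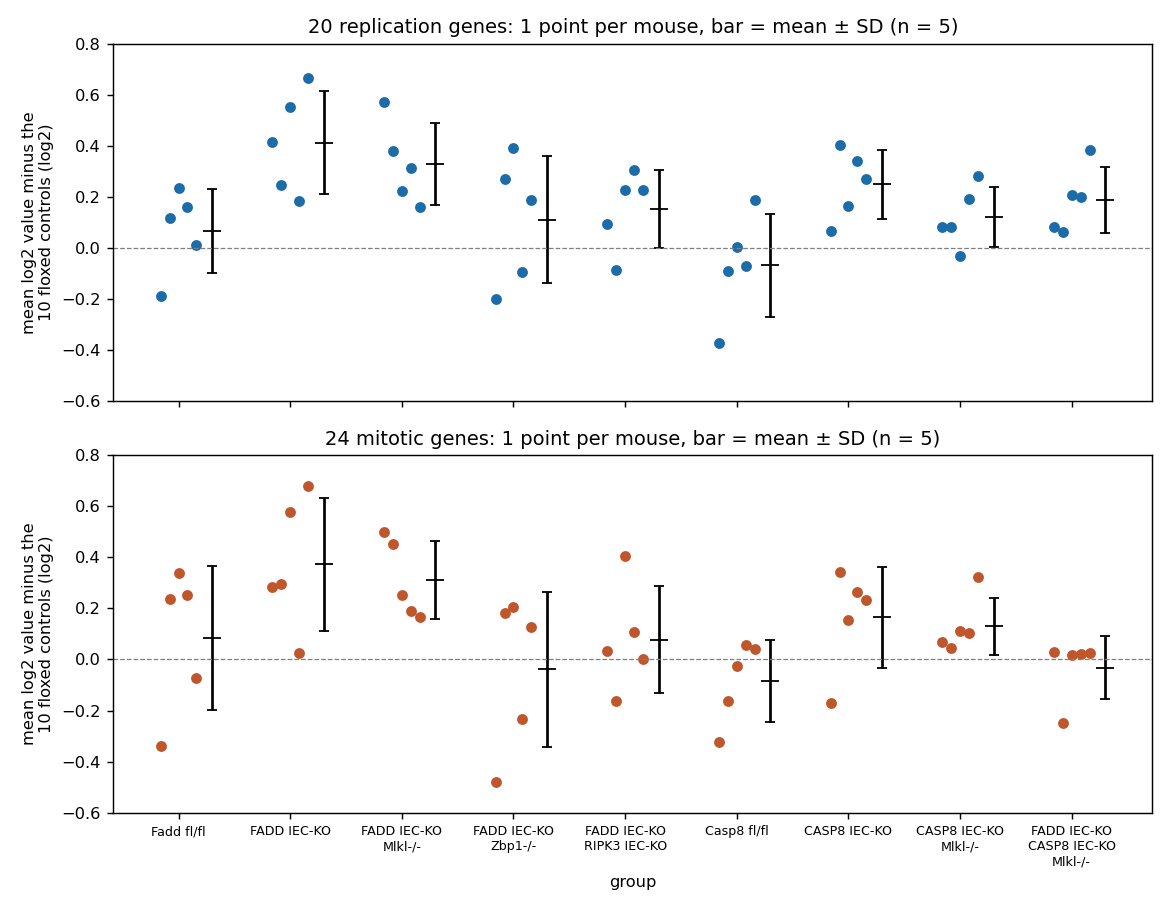
Mean log2 value of the 20 replication genes (top) and the 24 mitotic genes (bottom) in each mouse, relative to the 10 floxed controls, with the group mean ± SD (n = 5). FADD IEC-KO and FADD IEC-KO Mlkl-/- lie above 0 in every mouse in both panels, and in FADD IEC-KO Zbp1-/- 2 mice lie below 0 in both.

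The difference of the 2 means sets replication against mitotic genes within a mouse. It was near 0 in both floxed groups (-0.02 ± 0.12 for Fadd and 0.02 ± 0.11 for Casp8), in FADD IEC-KO mice (0.04 ± 0.10) and after added loss of MLKL (0.02 ± 0.08 without FADD, -0.01 ± 0.09 without caspase-8). It was 0.22 ± 0.12 in triple mutants, 0.15 ± 0.09 where FADD and ZBP1 were missing and 0.08 ± 0.09 where caspase-8 alone was missing, and above 0 in 5 of 5 mice of each of these. Without mouse 1 of CASP8 IEC-KO, the one whose Casp8 level was nearest the controls, that group's mean was 0.05 ± 0.03 (n = 4), and without mouse 1 of FADD IEC-KO that group's was 0.02 ± 0.10. Mice that lacked FADD and RIPK3 had 0.08 ± 0.16, with 4 of 5 above 0. The highest floxed mouse stood at 0.15, so 4 of the 5 triple mutants and 2 of the 5 FADD IEC-KO Zbp1-/- mice lay above every floxed mouse, as did 2 of the 5 FADD IEC-KO RIPK3 IEC-KO mice and 1 mouse of each single knockout. All 5 triple mutants carried title numbers of 200 and over, as did 3 Fadd fl/fl mice and 1 Casp8 fl/fl mouse. The 2 FADD IEC-KO RIPK3 IEC-KO mice above every floxed mouse were also numbered 200 and over. Those of FADD IEC-KO Zbp1-/- and of the single knockouts were numbered under 100. These differences are descriptions of the chosen genes, and no test was run on them.

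**Figure D3:**
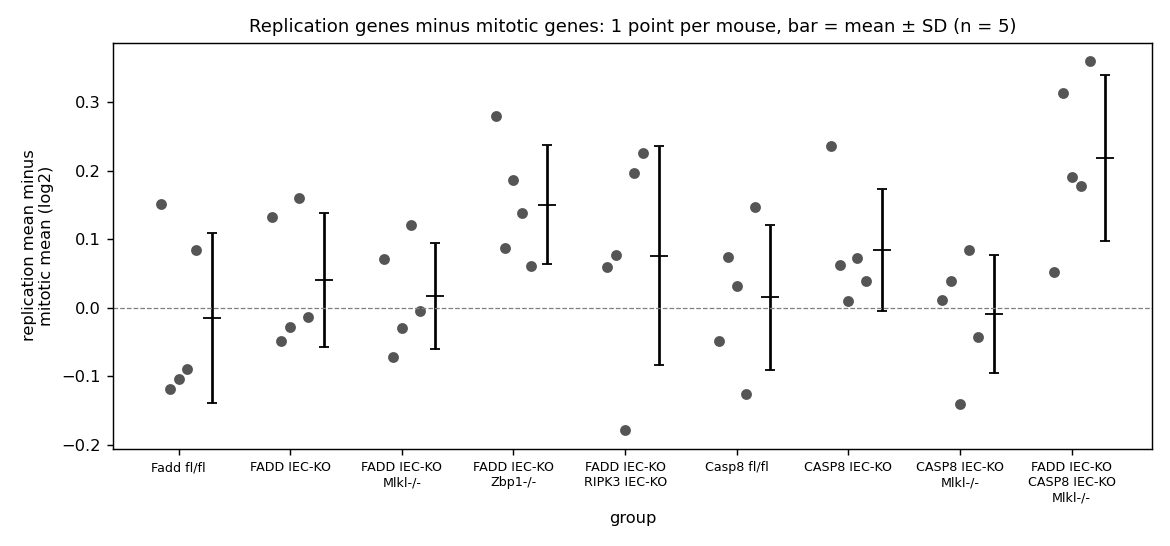
Mean of the replication genes minus mean of the mitotic genes in each mouse (log2, each gene relative to the 10 floxed controls), with the group mean ± SD (n = 5). Triple mutants have the highest group mean, 0.22, and all 5 of their mice lie above 0. All 5 carry title numbers of 200 and over.

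Genes of the 2 sets varied together between mice of the same group. With group means removed, the median correlation over the 45 mice was 0.564 across 190 pairs of replication genes, 0.740 across 276 pairs of mitotic genes and 0.578 across 480 mixed pairs. The median between members and all genes was -0.03. These correlations describe one tissue sample per mouse, whose share of crypt all genes have in common. Ube2c, the ubiquitin-conjugating enzyme of the anaphase-promoting complex, had the closest correlation with the mean of the other genes of its set (r = 0.942), and Mcm5, a subunit of the replicative helicase, did so among the replication genes (r = 0.906). Tk1, the salvage enzyme thymidine kinase (r = 0.07), Pola1, the catalytic subunit of polymerase alpha (r = 0.226), and Ccne2, one of the E cyclins (r = 0.235), followed theirs least.

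The first comparison asked what loss of FADD in the epithelium does to these genes, in FADD IEC-KO against Fadd fl/fl mice. Every one of the 44 genes had the higher mean in FADD IEC-KO, and 5 rose, all of them replication genes: Gins1, Rrm2, Cdca7, Pola1 and Ccne1. Across all genes, 1.81% rose and 1.92% fell, and 49.6% had the higher mean in FADD IEC-KO. The median change was 0.34 for the replication genes and 0.29 for the mitotic genes, against 0.00 for all genes. A gene is said to have risen or fallen where limma's adjusted p over 19494 genes was under 0.05. Lack of overlap between groups in a called gene rests on the same values and adds no separate support. None of the 24 mitotic genes passed, although 12 of them and 14 of the 20 replication genes had an unadjusted p under 0.05, as did 18.4% of all genes. A difference in change between the 2 sets was not tested. Members varied together within groups, with median correlations of 0.564 to 0.740 between pairs. Counts of members that read higher or lower, here and below, are therefore not counts of independent genes. Between the floxed groups, where 0 members passed, 41 of 44 read higher in Fadd fl/fl than in Casp8 fl/fl mice. The share of all genes that read higher is thus no measure of chance for such counts.

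Gins1 belongs to the GINS complex, which turns the loaded helicase into an active one. Of the measured members Gins1 had the lowest mean over all arrays, 5.75, at percentile 37.3 of all genes. It read 5.25, 5.60, 5.61, 5.78 and 5.85 in Fadd fl/fl mice and 6.04, 6.18, 6.37, 6.46 and 6.49 in FADD IEC-KO mice. The groups did not overlap, and the change was 0.69 ± 0.18 (log2, SE), or 1.62-fold, with limma's adjusted p = 0.0196. Cdca7, a chromatin protein whose gene answers to Myc and E2F, also separated the groups completely. It read 6.41, 6.69, 6.84, 7.08 and 7.11 in controls and 7.28, 7.28, 7.29, 7.35 and 7.52 in knockouts, a rise of 0.52 ± 0.14 (limma's adjusted p = 0.0233). Rrm2, the small subunit of ribonucleotide reductase, which makes deoxynucleotides, rose by 0.60 ± 0.17 (limma's adjusted p = 0.0402). Its values of 7.34, 7.62, 7.91, 7.97 and 8.02 in controls overlapped those of 7.98, 8.05, 8.32, 8.66 and 8.87 in knockouts at 1 mouse.

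Pola1 makes the DNA part of the RNA-DNA primers that both strands need, and rose by 0.44 ± 0.12 (limma's adjusted p = 0.0249). Ccne1, the cyclin that drives entry into S phase, rose by 0.41 ± 0.12 (limma's adjusted p = 0.0483). The 5 measured subunits of the MCM helicase did not pass the test and read 0.28 to 0.50 higher. Among mitotic genes, the 7 kinesins and spindle proteins read 0.15 to 0.40 higher and the 6 mitotic and checkpoint kinases 0.20 to 0.34 higher. Mki67, the proliferation marker Ki-67 and the mitotic gene with the highest mean, read 0.23 ± 0.11 higher without passing (limma's adjusted p = 0.26).

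For fits that left out mice or added a covariate, calls over all genes were not counted. Member counts of such fits, here and below, have no background beside them. The count of 5 was small and moved with single mice. It was 1 without mouse 1 of Fadd fl/fl, 2 without mouse 2 or 5 of that group or mouse 1, 3 or 5 of FADD IEC-KO, and 3 without mouse 2 of FADD IEC-KO. Without the 2 mice whose targeted gene lay nearest the controls, 3 members rose, and 43 of 44 read higher. Among the mice with numbers under 100, 2 controls and 4 knockouts, 0 passed, and 43 of 44 read higher, and with only the 2 groups in the fit 1 passed. Markers of smooth muscle, 10 of 10 genes, read lower in FADD IEC-KO, with 1 that fell, and their mean per mouse ranged from -1.14 to 0.22 against -0.50 to 0.32 in controls. With that marker mean as a covariate 2 members passed. Of the 10 epithelial markers 9 read higher, by a median of 0.10, and Krt20 rose. Their mean per mouse ran from 0.08 to 0.15 in FADD IEC-KO and from -0.04 to 0.02 in controls. With it as a covariate 0 members passed, and the medians were 0.18 and 0.09. Of the Paneth cell markers 8 of 10 fell, by a median of -2.19 over all 10. Fibroblast markers read lower in 7 of 7, by a median of -0.64, and endothelial markers in 7 of 7, by -0.48, with 2 that fell in each. Myeloid markers read lower in 7 of 9, by -0.51, with 2 that fell and 1 that rose, the neutrophil gene S100a8. The part of these cells in the result was not tested.

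Other genes of the same pathways were read from lists of their own. Of 44 other replication genes, 9 rose and 0 fell, led by Cdc7, the kinase that fires origins (0.64 ± 0.16, limma's adjusted p = 0.0154), Orc6 of the origin recognition complex (0.55 ± 0.14) and Ticrr, an origin firing factor (0.51 ± 0.13). Of 63 other mitotic genes 62 read higher and 2 rose, Cep55, which acts in the last step of cell division (0.74 ± 0.20), and the spindle protein Tacc3 (0.34 ± 0.10). Ccnd2, a G1 cyclin, rose by 0.40 ± 0.10, and of 18 E2F, MuvB and FOXM1 regulators E2f6, a repressor, and Tfdp1, the E2F partner DP1, rose. In limma's test 0 of 15 cell cycle inhibitors and 0 of 8 crypt stem cell markers passed, with 2 of each at an unadjusted p under 0.05. Markers of mature B cells, which divide in Peyer's patches, read lower in 10 of 13, by a median of -0.14, with 0 that passed and 0 at an unadjusted p under 0.05. T cell and intraepithelial lymphocyte markers read lower in 8 of 10, by a median of -0.43, and 1 fell.

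**Figure D4:**
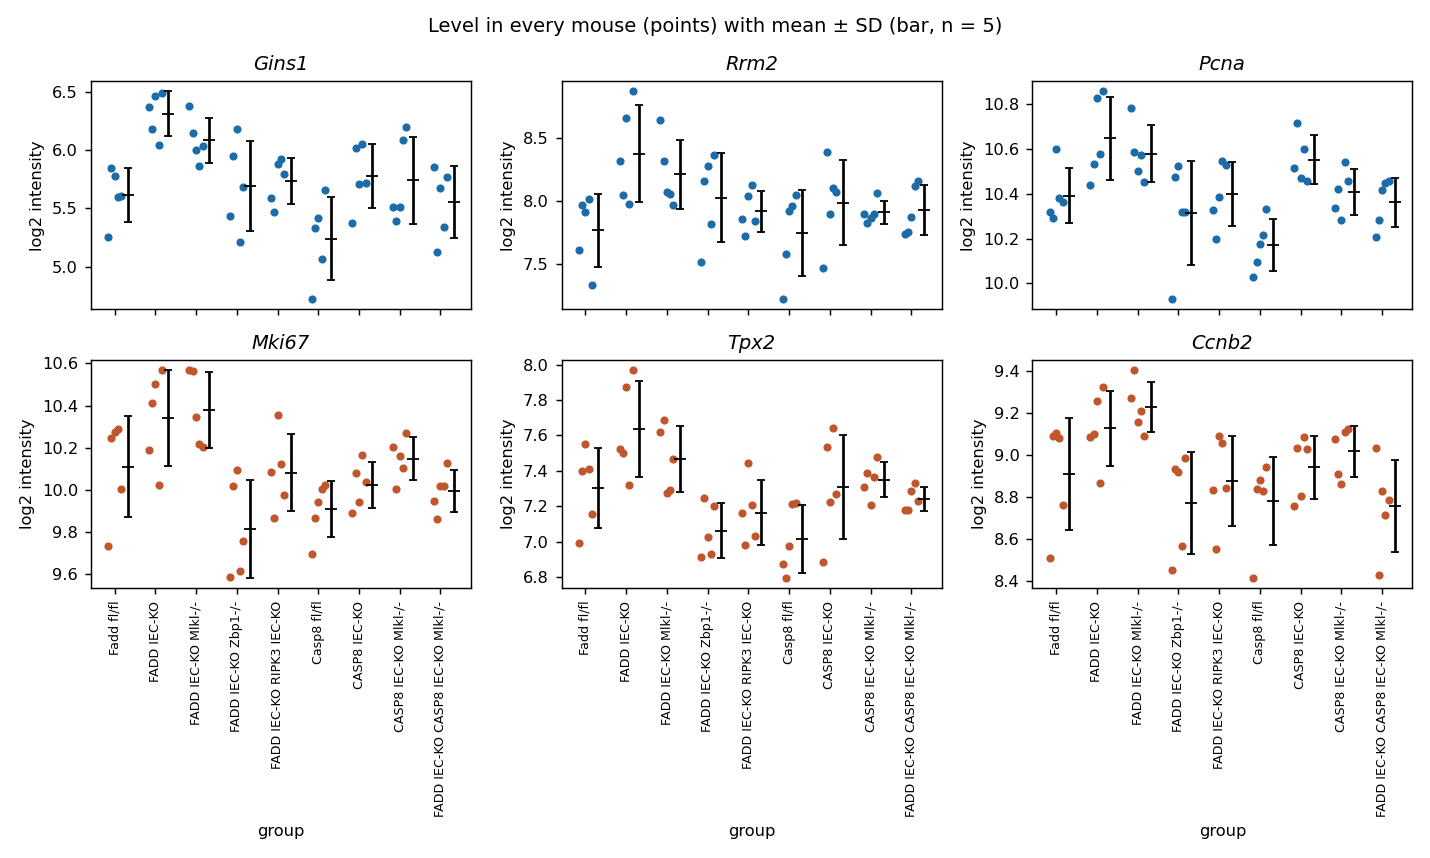
Log2 intensity of 3 replication genes (top) and 3 mitotic genes (bottom) in every mouse, with the group mean ± SD (n = 5). Gins1 is higher in every FADD IEC-KO mouse than in any Fadd fl/fl mouse, and Ccnb2 and Mki67 are lower in every triple mutant than in any FADD IEC-KO Mlkl-/- mouse.

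Loss of caspase-8 was assessed in CASP8 IEC-KO against Casp8 fl/fl mice. There 42 of 44 genes read higher and 4 replication genes rose, Pcna, Uhrf1, Pola1 and Cdc6, while 2.89% of all genes rose and 1.28% fell. Pola1 rose in both comparisons, which rest on separate mice, and was 1 of the 5 genes called without FADD and 1 of the 4 called without caspase-8. The median change was 0.36 for replication genes and 0.25 for mitotic genes, and 46.5% of all genes read higher. None of the 24 mitotic genes passed, and 7 of them and 15 of the 20 replication genes had an unadjusted p under 0.05, as did 18.7% of all genes.

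Pcna is the sliding clamp that holds polymerases on DNA. It read 10.03, 10.09, 10.18, 10.22 and 10.33 in Casp8 fl/fl mice and 10.46, 10.47, 10.51, 10.60 and 10.72 in CASP8 IEC-KO mice. The groups were apart in every mouse, with a rise of 0.38 ± 0.09, or 1.30-fold (limma's adjusted p = 0.0157). Uhrf1, which carries DNA methylation onto the new strand, read 8.12, 8.19, 8.36, 8.43 and 8.44 in controls. In knockouts it read 8.56, 8.62, 8.65, 8.81 and 9.03, again without overlap, and rose by 0.43 ± 0.11 (limma's adjusted p = 0.0192). Pola1 rose by 0.43 ± 0.12 without overlap (limma's adjusted p = 0.0277), from 6.19 ± 0.18 (SD) to 6.62 ± 0.20. Cdc6, which loads the helicase onto origins, rose by 0.51 ± 0.14 (limma's adjusted p = 0.0282). Its control values of 6.02, 6.06, 6.28, 6.37 and 6.47 overlapped those of 6.40, 6.71, 6.72, 6.80 and 7.12 in knockouts through mouse 1, the one whose Casp8 level was nearest the controls.

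The 5 MCM subunits read 0.26 to 0.48 higher without passing, and so did Gins1 (0.53 ± 0.18, limma's adjusted p = 0.0714). Among mitotic genes Bub1, a checkpoint kinase, had the largest difference, 0.59, and Cdk1, the kinase of mitotic entry, read 0.54 ± 0.19 higher (limma's adjusted p = 0.0962). Mki67 differed by 0.12 ± 0.11 (limma's adjusted p = 0.628). Tk1 and Cdca8, a chromosomal passenger protein, were the only genes that read lower, with differences of -0.08 and -0.06.

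Without mouse 1 of CASP8 IEC-KO, 8 members rose. Without mouse 2 of that group 0 did, and 2 did without its mouse 4 or without mouse 1 of Casp8 fl/fl. Among mice with numbers under 100, 4 controls and 3 knockouts, 0 passed and 41 of 44 read higher. The 4 called genes differed there by 0.39 to 0.56. With only the 2 groups in the fit 0 passed. Smooth muscle markers were split, 5 of 10 higher, with a median of -0.01. Epithelial markers read higher in 7 of 10, and Krt18 and Krt8 rose. Their mean per mouse spanned 0.01 to 0.24 in CASP8 IEC-KO and -0.08 to 0.07 in controls. With that mean as a covariate 0 members passed, and the medians were 0.21 and 0.08. Paneth markers fell in 8 of 10 and goblet markers in 7 of 9.

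Outside the 46, Tipin, a fork protection factor (0.69 ± 0.15), and Wdhd1, which ties polymerase alpha to the helicase (0.46 ± 0.11), rose among 44 replication genes, of which 42 read higher. Of 63 other mitotic genes 59 read higher, and the CDK subunits Cks2 (0.56 ± 0.14) and Cks1b (0.50 ± 0.12) rose. Cdk4, a G1 kinase, and again E2f6 and Tfdp1 rose.

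The effects of FADD loss and of caspase-8 loss were compared by an interaction term. For 0 of the 44 genes did they differ in limma's test (0% of all genes). Only 1 member had an unadjusted p under 0.05, as did 6.52% of all genes. Rrm2 had the largest difference among replication genes, 0.36 ± 0.25 more in FADD loss, with limma's adjusted p = 0.871. A p above the threshold does not show equal effects, and the standard error of this difference was 0.13 to 0.31 across the 44 genes. The medians of the difference, 0.03 and 0.05, were -0.02 and 0.00 without mouse 1 of each single knockout. The 2 floxed groups did not differ in any member (0.00513% of all genes), although 41 of 44 read higher in Fadd fl/fl, by a median of 0.14. In 4 members the unadjusted p was under 0.05, as in 8.38% of all genes.

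Loss of MLKL was then compared with the single knockouts. In FADD IEC-KO Mlkl-/- against FADD IEC-KO mice 0 of 44 genes passed, against 1.61% of all genes. Unadjusted, 0 members and 10.5% of all genes had a p under 0.05. The medians were -0.06 and -0.06, and Pcna and Mki67 differed by -0.07 ± 0.09 and 0.04 ± 0.11. These small medians changed sign with the setting. With the epithelial marker mean as a covariate 12 of 20 replication and 19 of 24 mitotic genes read higher (0.01 and 0.07), and among numbers under 100 15 of 24 mitotic genes did (0.02). Without mouse 1 of each single knockout they were -0.06 and -0.09, with 0 calls.

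In CASP8 IEC-KO Mlkl-/- against CASP8 IEC-KO mice 0 of 44 passed against 2.78% of all genes. There 19 of 20 replication genes read lower, by a median of -0.14, and 15 of 24 mitotic genes, by a median of -0.05. With the epithelial marker mean as a covariate the mitotic direction turned, with 21 of 24 higher (0.14), and the replication genes were split 10 to 10. Without mouse 1 of each single knockout 19 of 20 and 18 of 24 read lower (-0.18 and -0.14), with 0 calls. Cdc6, the helicase loader, had an unadjusted p under 0.05 (-0.39 ± 0.14, limma's adjusted p = 0.148), and no other member did. Across all genes 12.7% did. Paneth markers in the same mice rose in 7 of 10. The effect of MLKL loss did not differ between the 2 backgrounds for any member (0.0564% of all genes). For this term 0 members had an unadjusted p under 0.05, against 6.30% of all genes.

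Set against floxed mice, the FADD IEC-KO Mlkl-/- group read higher in 44 of 44 genes, with medians of 0.27 and 0.24, yet 0 passed, against 10.5% of all genes in either direction. There 16 members had an unadjusted p under 0.05, as did 23.4% of all genes. The smallest adjusted p of a member in limma was 0.0544, for Uhrf1. The count was 2 without mouse 3 of Fadd fl/fl or mouse 5 of FADD IEC-KO Mlkl-/-, and 1 without mouse 4 of Fadd fl/fl. Of the other genes, Cdc7 (0.54 ± 0.16) and Cep55 (0.64 ± 0.20) rose, with 3 of 44 replication and 5 of 63 mitotic genes in all. Btg2, an antiproliferative gene (-0.52 ± 0.12), and Cdkn1b, which encodes the CDK inhibitor p27 (-0.32 ± 0.10), fell. Smooth muscle markers fell in 6 of 10, with a median of -0.62, fibroblast markers in 6 of 7 (-0.76), endothelial markers in 5 of 7 (-0.73) and Paneth markers in 9 of 10 (-1.96). In CASP8 IEC-KO Mlkl-/- against Casp8 fl/fl mice 42 of 44 read higher, with medians of 0.18 and 0.23, and 0 passed against 1.09% of all genes. In that comparison 10 members had an unadjusted p under 0.05, as did 11.8% of all genes. These comparisons share groups with those above and are not independent of them.

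The next comparison asked what loss of ZBP1 adds in the FADD-deficient ileum. In FADD IEC-KO Zbp1-/- against FADD IEC-KO mice 42 of 44 genes read lower and 7 fell, the replication genes Rrm1, Gins1 and Pcna and the mitotic genes Kif11, Nusap1, Tpx2 and Mki67. Of all genes 2.47% fell and 0.857% rose. The medians were -0.34 for replication and -0.44 for mitotic genes against -0.01 for all genes. An unadjusted p under 0.05 was found in 31 of 44 members and 17.8% of all genes. FADD IEC-KO mice are the same 5 that stood high against Fadd fl/fl mice, so the falls are not independent of the rises above.

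Tpx2 targets and activates Aurora A on the spindle. It read 7.32, 7.50, 7.52, 7.87 and 7.97 in FADD IEC-KO and 6.91, 6.93, 7.02, 7.20 and 7.25 in FADD IEC-KO Zbp1-/- mice. Every double mutant lay below every single knockout, and Tpx2 fell by 0.57 ± 0.12, to 0.672 of its level (limma's adjusted p = 0.00783). Nusap1, which binds spindle microtubules, read 7.84, 8.0, 8.28, 8.28 and 8.50 in single knockouts and 7.15, 7.29, 7.71, 7.73 and 7.79 in double mutants. It too was apart in all mice and fell by 0.65 ± 0.15 (limma's adjusted p = 0.0136). Kif11, the kinesin that pushes the spindle poles apart, fell by 0.70 ± 0.17, to 0.617 of its level (limma's adjusted p = 0.0158). Its values of 7.67, 7.90, 8.07, 8.20 and 8.33 overlapped those of 6.72, 7.01, 7.52, 7.67 and 7.76 at the edge. This is the gene whose promoter, printed above, holds a CCAAT box and TTTGAA close to the start.

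Mki67 fell by 0.52 ± 0.11 (limma's adjusted p = 0.00658), the smallest adjusted p of the set. It read 10.02, 10.19, 10.41, 10.50 and 10.57 in FADD IEC-KO and 9.59, 9.62, 9.76, 10.02 and 10.09 in FADD IEC-KO Zbp1-/- mice, so 1 single knockout lay within the range of the double mutants. Rrm1, the large subunit of ribonucleotide reductase, fell by 0.70 ± 0.18 (limma's adjusted p = 0.0245), from 8.59 ± 0.34 (SD) to 7.90 ± 0.41. Gins1 fell by 0.62 ± 0.18 (limma's adjusted p = 0.0406), with double mutants at 5.22, 5.44, 5.68, 5.95 and 6.18. Pcna fell by 0.34 ± 0.09 (limma's adjusted p = 0.0384). Bub1 read 0.65 lower without passing, and Birc5, which encodes survivin, and Tk1 were the only genes that did not read lower.

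Mice of the double mutant differed among themselves. Mice 1 and 4 had mitotic means of -0.48 and -0.23, and the other 3 lay between 0.13 and 0.21. The count of falls was 2 without mouse 1 of FADD IEC-KO Zbp1-/- or mouse 5 of FADD IEC-KO, and 3 without mouse 4 of the former or mouse 3 of the latter. It was 16 without mouse 3 of FADD IEC-KO Zbp1-/- and 18 without mouse 4 of FADD IEC-KO. Tpx2 and Mki67 passed in each of the 10 fits that left out 1 mouse, but 0 members passed, these 2 included, with only the 2 groups in the fit. Without mouse 1 of each single knockout 8 members fell and Gins1 was not among them, as it was not without mouse 1 of FADD IEC-KO alone. Among mice with numbers under 100, 4 and 3, 0 passed and 41 of 44 read lower, with Tpx2 at -0.49 and Mki67 at -0.38. Smooth muscle markers read higher in 10 of 10, by a median of 0.43 with 0 that passed and 8 at an unadjusted p under 0.05, and ranged from -0.21 to 0.22 in FADD IEC-KO Zbp1-/- mice. Stem cell markers read lower in 7 of 8, by a median of -0.22, with 0 that passed and 3 at an unadjusted p under 0.05. Endothelial markers read lower in 6 of 7, by a median of -0.30, with 0 that passed and 2 at an unadjusted p under 0.05. The stem cell mean ranged from -0.30 to 0.00 against -0.16 to 0.19. With the smooth muscle mean as a covariate 5 members passed. Paneth markers read lower in 10 of 10, by a median of -0.65, with 1 that fell and 5 at an unadjusted p under 0.05. Goblet and myeloid markers had 1 that fell in each list, with medians of -0.04 and -0.15. The part of stem, endothelial, Paneth, goblet and myeloid cells in the falls was not tested.

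Genes of the wider pathways fell as well. Of 63 other mitotic genes 60 read lower and 13 fell, led by the kinesin Kif18a (-0.81 ± 0.17, limma's adjusted p = 0.0058), the kinetochore gene Cenpk (-0.68 ± 0.15) and the checkpoint gene Mad2l1 (-0.67 ± 0.16). Of 44 other replication genes 37 read lower and 6 fell, among them Chaf1b of chromatin assembly factor 1 (-0.96 ± 0.25), Timeless (-0.47 ± 0.12), a fork protection factor, and Pola2 (-0.47 ± 0.13), a subunit of polymerase alpha. The kinases Cdk2 (-0.61 ± 0.13) and Cdk6 (-0.49 ± 0.13) fell, as did E2f8, an atypical E2F (-0.72 ± 0.21), and Lin9, a MuvB subunit (-0.53 ± 0.13). Of 15 cell cycle inhibitors 0 passed in limma's test and 4 had an unadjusted p under 0.05.

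Against Fadd fl/fl mice, FADD IEC-KO Zbp1-/- mice gave 1 call. Of 20 replication genes 13 read higher, with a median of 0.06, and 0 passed. Only 2 of them had an unadjusted p under 0.05, against 25.2% of all genes. Of 24 mitotic genes 19 read lower, with a median of -0.15, and 1 fell, Nusap1 (-0.49 ± 0.15, limma's adjusted p = 0.0308). Of all genes 7.08% fell and 4.78% rose, so 1 of 44 lies below that background. Nusap1 in controls read 7.34, 7.85, 8.16, 8.34 and 8.41 and overlapped the double mutants. Neither side of this kept its direction in every setting. Among numbers under 100, 13 of 24 mitotic genes read higher (0.00), and with the epithelial marker mean as a covariate 15 of 20 replication genes read lower (-0.13). Nusap1 did not pass without mouse 2, 3 or 4 of Fadd fl/fl or mouse 1 or 4 of FADD IEC-KO Zbp1-/-, nor with only the 2 groups in the fit, while 2 members passed without mouse 1 of Fadd fl/fl or mouse 3 of FADD IEC-KO Zbp1-/-. It differed by -0.20 among mice numbered under 100 and by -0.69 among those of 200 and over. Paneth markers fell in 10 of 10 (-2.74), fibroblast markers in 6 of 7 (-0.69), endothelial markers in 6 of 7 (-0.78), myeloid markers in 4 of 9 (-0.49) and B cell markers in 3 of 13 (-0.21), and 2 of 10 epithelial markers rose (0.15), each with the list's median change. Their part in the result was not tested.

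Loss of RIPK3 in the epithelium was compared with the same FADD IEC-KO mice. In FADD IEC-KO RIPK3 IEC-KO against FADD IEC-KO mice 43 of 44 read lower, with medians of -0.23 and -0.26. Only Tpx2 fell (-0.47 ± 0.12, limma's adjusted p = 0.0407), while 0.723% of all genes fell and 0.831% rose. Tpx2 read 6.98, 7.03, 7.16, 7.21 and 7.44 in these mice, and the highest reached into the FADD IEC-KO range. Of 20 replication genes 0 passed and 8 had an unadjusted p under 0.05, as did 14.2% of all genes. Gins1 read 5.47, 5.59, 5.80, 5.88 and 5.93, below every FADD IEC-KO mouse, and differed by -0.58 ± 0.18 with limma's adjusted p = 0.0842. Pcna differed by -0.25 ± 0.09 (limma's adjusted p = 0.188).

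Tpx2 lost its call in 7 of the 10 fits without 1 mouse, those without mouse 1, 2, 4 or 5 of FADD IEC-KO RIPK3 IEC-KO or mouse 2, 3 or 5 of FADD IEC-KO. Without mouse 4 of FADD IEC-KO 3 members fell. With only the 2 groups in the fit, the epithelial marker mean or a sex index as a covariate, or numbers under 100 alone, 0 passed. Without mouse 1 of each single knockout 1 fell, and 43 of 44 read lower. Outside the set Myc, the growth regulator, fell by 1.14 ± 0.27 on the log2 scale (limma's adjusted p = 0.0205), and Tfdp1 fell by 0.37 ± 0.09. Of 63 other mitotic genes 61 read lower and 0 passed, with 19 at an unadjusted p under 0.05. Smooth muscle markers read higher in 9 of 10, by a median of 0.21, with 0 that passed and 1 at an unadjusted p under 0.05. Stem cell markers read lower in 7 of 8, with 2 at an unadjusted p under 0.05, and Paneth markers rose in 4 of 10. Against Fadd fl/fl mice 0 of 44 members passed, with medians of 0.10 and -0.01, against 1.23% of all genes. Of the members 0 had an unadjusted p under 0.05, against 13.9% of all genes. Among numbers under 100, 22 of 24 mitotic genes read higher (0.17). With the epithelial marker mean as a covariate 23 of 24 read lower (-0.15), and the replication median turned to -0.04. Fibroblast and Paneth markers fell in 4 of 7 (-0.75) and 4 of 10 (-1.05).

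In the comparison for caspase-8 loss added to FADD and MLKL loss, only mitotic genes were called. All 5 triple mutants were numbered 200 and over and all 5 FADD IEC-KO Mlkl-/- mice under 100. Genotype and number range therefore cannot be told apart in it. In triple mutants against FADD IEC-KO Mlkl-/- mice all 24 mitotic genes read lower, by a median of -0.33, and 5 fell: Hmmr, Ccnb2, Ccna2, Birc5 and Mki67. The replication genes had a median of -0.15, 17 of 20 read lower, and 0 passed, with 4 at an unadjusted p under 0.05. An unadjusted p under 0.05 was found in 14 mitotic genes and 21.6% of all genes. Of all genes 2.35% fell and 5.51% rose. Whether the 2 sets differ in their change was not tested. All 5 called mitotic genes separated the groups completely. They were picked by the test on these same values, and such separation was not counted over all genes.

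Hmmr binds hyaluronan and the spindle, and read 6.80, 6.81, 6.94, 7.17 and 7.36 in FADD IEC-KO Mlkl-/- mice and 6.03, 6.51, 6.52, 6.65 and 6.68 in triple mutants. It fell by 0.54 ± 0.15, to 0.689 of its level (limma's adjusted p = 0.0218). Ccnb2 encodes cyclin B2, a partner of Cdk1, and read 9.09, 9.16, 9.21, 9.27 and 9.40 against 8.43, 8.72, 8.78, 8.83 and 9.03. It fell by 0.47 ± 0.12 (limma's adjusted p = 0.0135). Ccna2, the cyclin of S and G2 phase, read 8.85, 8.85, 8.93, 9.11 and 9.14 against 8.29, 8.51, 8.52, 8.60 and 8.63. It fell by 0.47 ± 0.14 (limma's adjusted p = 0.0345), and the third measured gene of that role, Cdk1, read 0.43 lower without passing. Ccnb2, Hmmr and Mki67 hold the TTTGAA sites printed above, while Birc5 held none in its window and Ccna2 had no window.

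Birc5, of the chromosomal passenger complex, read 8.64, 8.68, 8.91, 8.99 and 9.05 against 8.32, 8.38, 8.40, 8.46 and 8.56. Mki67 read 10.20, 10.22, 10.34, 10.57 and 10.57 against 9.86, 9.94, 10.02, 10.02 and 10.13. They fell by 0.43 ± 0.11 and 0.38 ± 0.11 (limma's adjusted p = 0.0138 and 0.0252). Bub1 differed by -0.61 (limma's adjusted p = 0.0757). The E cyclins read 0.09 and 0.15 higher, and Pcna differed by -0.22 ± 0.09 (limma's adjusted p = 0.16).

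In this pair of groups the number range of the titles and the genotype cannot be told apart. A fit of all groups with the range as a covariate takes its size from the other groups, and there 9 members passed and Birc5 did not. Without mouse 2 of the triple mutants, or mouse 2 of FADD IEC-KO Mlkl-/-, 1 gene passed, and without mouse 1 of the latter 2 did. Smooth muscle markers rose in 9 of 10, by a median of 0.79, from between -0.91 and -0.53 in FADD IEC-KO Mlkl-/- mice to between -0.08 and 0.35. With that mean as a covariate 1 member passed, Birc5, while the 5 differences stayed between -0.57 and -0.38. Fibroblast markers read higher in 7 of 7, by a median of 0.46, with 1 that rose, and Paneth markers rose in 8 of 10. Enterocyte markers read higher in 11 of 12, by a median of 0.30, with 4 that rose. T cell markers read higher in 9 of 10, by a median of 0.49, with 0 that passed. Stem cell markers were split, 4 higher and 4 lower, with 1 that fell. The part of these cells in the result was not tested. Of 63 other mitotic genes 59 read lower and 14 fell, led by Cks2 (-0.60 ± 0.14), Stil, a centriole gene (-0.53 ± 0.17), and Prc1, which bundles the spindle midzone (-0.52 ± 0.16). Of 44 other replication genes 2 fell, Cdc7 (-0.70 ± 0.16) and Orc4 (-0.42 ± 0.11). Btg2 (0.58 ± 0.12) and Cdkn2b, a CDK inhibitor (0.35 ± 0.09), rose.

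Adding FADD loss to caspase-8 and MLKL loss gave 0 calls of 44 against 3.10% of all genes. Of the members 4 had an unadjusted p under 0.05, as did 15.6% of all genes. Of the replication genes 14 of 20 read higher, by a median of 0.07, and of the mitotic genes 23 of 24 read lower, by a median of -0.15. Fen1, the nuclease that trims Okazaki fragments, read 6.32, 6.32, 6.62, 6.63 and 6.82 in CASP8 IEC-KO Mlkl-/- mice and 6.78, 6.96, 6.97, 7.05 and 7.35 in triple mutants. The ranges met at 1 mouse, and the difference of 0.48 ± 0.14 did not pass (limma's adjusted p = 0.0556). Pcna and Mki67 differed by -0.05 ± 0.09 and -0.15 ± 0.11. With the number range as a covariate the replication median was -0.05 and 15 of 20 read lower, so the direction of that set turned. Without mouse 2 of the triple mutants or mouse 5 of CASP8 IEC-KO Mlkl-/- 1 member passed. Hjurp, which deposits centromeric histone, fell by 0.31 ± 0.07 (limma's adjusted p = 0.00828) among the other mitotic genes.

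Against the mean of both floxed groups, triple mutants read higher in 20 of 20 replication genes, by a median of 0.17, and lower in 14 of 24 mitotic genes, by a median of -0.04. Fen1 rose by 0.54 ± 0.12, or 1.45-fold (limma's adjusted p = 0.00932), while 2.15% of all genes rose and 1.54% fell. Fen1 read 6.36, 6.39, 6.54, 6.67 and 6.91 in Fadd fl/fl mice and 6.06, 6.21, 6.34, 6.54 and 6.80 in Casp8 fl/fl mice, so the triple mutants overlapped 2 floxed mice. None of the mitotic genes passed and 0 had an unadjusted p under 0.05. Of the replication genes 3 had one, as did 17.8% of all genes. Fen1 did not pass without mouse 5 of the triple mutants, and 2 members passed without mouse 5 of Casp8 fl/fl. With the number range as a covariate 0 passed, and the medians were 0.08 and -0.12. Rpa1, which coats single-stranded DNA (0.35 ± 0.10), and E2f1 (0.46 ± 0.12) rose.

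**Figure D5:**
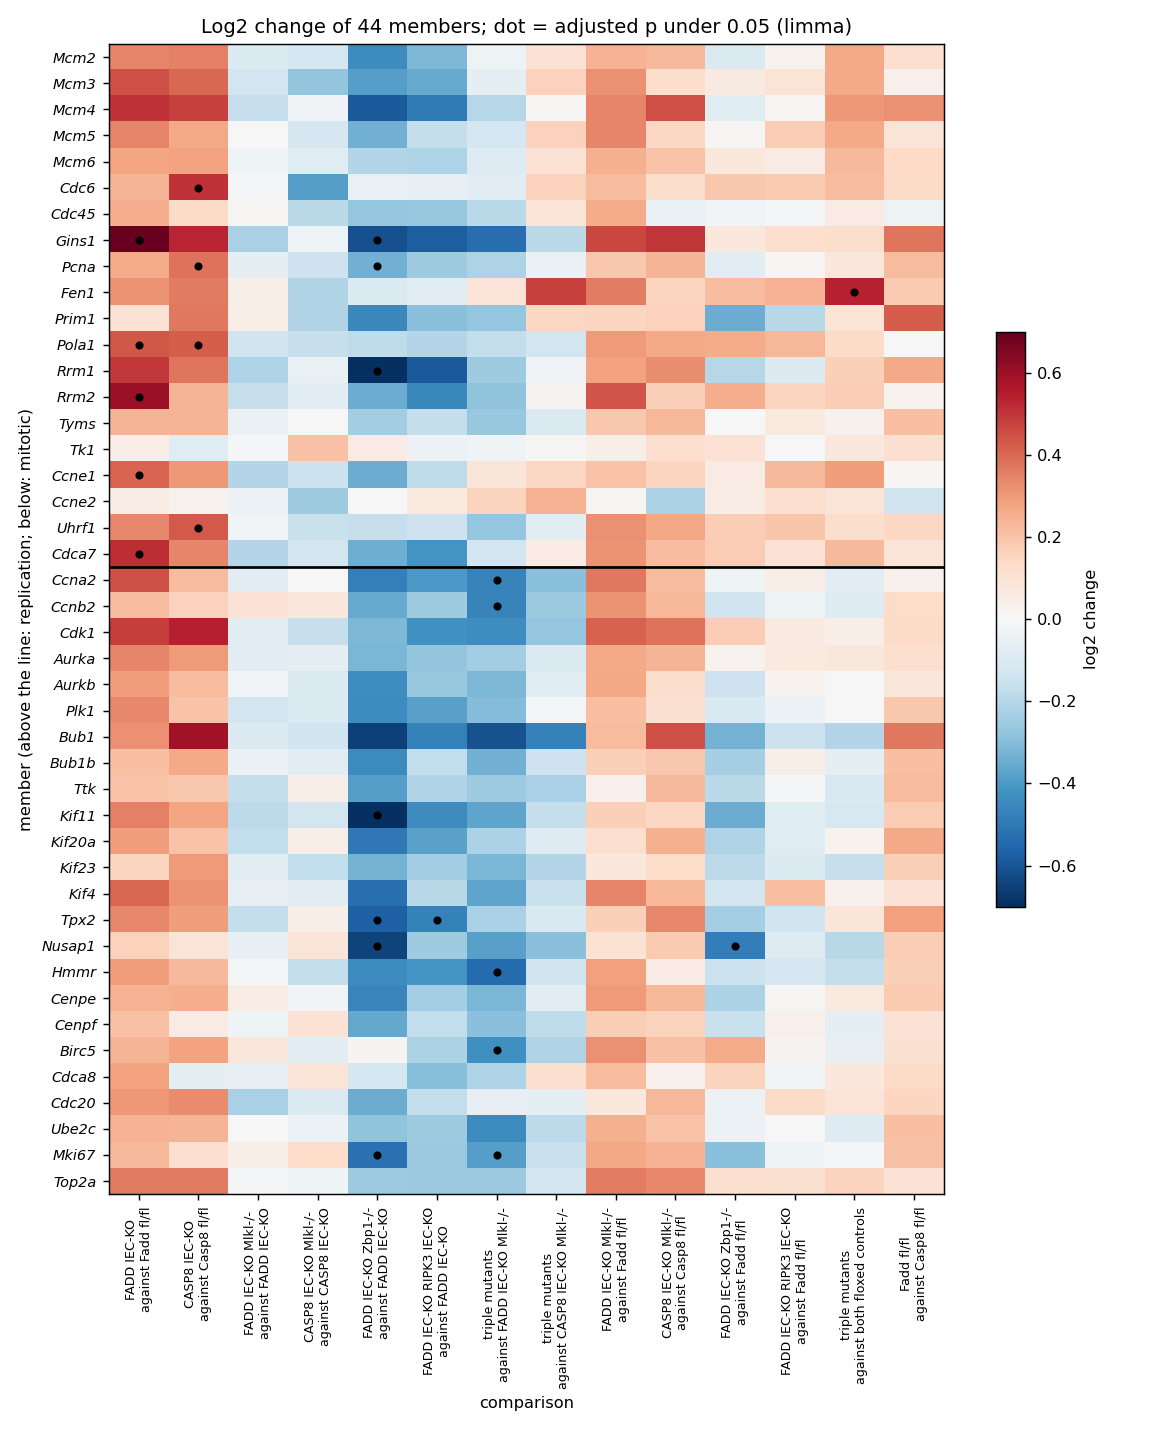
Log2 change of the 44 measured genes (rows, replication genes above the line and mitotic genes below) in 14 comparisons (columns), with a dot where limma's adjusted p was under 0.05. The first 2 columns are red in nearly every row, above and below the line, with dots only above it. The ZBP1 column is blue in both sets, and the column of triple mutants against FADD IEC-KO Mlkl-/- has dots only below the line. Differences between the 2 sets were not tested.

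The levels of 5 genes chosen by name are given for all 9 groups. Mki67 read 10.11 ± 0.24 (SD, n = 5) in Fadd fl/fl mice, 10.34 ± 0.23 without FADD, 10.38 ± 0.18 without FADD and MLKL, 9.82 ± 0.23 without FADD and ZBP1 and 10.08 ± 0.18 without FADD and RIPK3. It read 9.91 ± 0.13 in Casp8 fl/fl mice, 10.02 ± 0.11 without caspase-8, 10.15 ± 0.10 without caspase-8 and MLKL and 9.99 ± 0.10 in triple mutants. The lowest group was thus FADD IEC-KO Zbp1-/-, within 1 SD of Casp8 fl/fl.

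Top2a, the topoisomerase that untangles sister chromatids, passed in no comparison. It read 8.57 ± 0.24, 8.93 ± 0.25, 8.93 ± 0.21, 8.68 ± 0.36 and 8.68 ± 0.24 in the same order of FADD groups, and 8.46 ± 0.18, 8.83 ± 0.26, 8.80 ± 0.14 and 8.67 ± 0.23 in the same order of the other groups. Pcna read 10.39 ± 0.12, 10.65 ± 0.19, 10.58 ± 0.13, 10.31 ± 0.23 and 10.40 ± 0.14 in the FADD groups and 10.17 ± 0.12, 10.55 ± 0.11, 10.41 ± 0.10 and 10.36 ± 0.11 in the others. The 4 groups with the highest Pcna means were those without FADD or caspase-8, alone or with loss of MLKL, though CASP8 IEC-KO Mlkl-/- lay within 1 SD of Fadd fl/fl and FADD IEC-KO RIPK3 IEC-KO.

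Mcm5 read 7.11 ± 0.26, 7.45 ± 0.37, 7.45 ± 0.23, 7.12 ± 0.38 and 7.29 ± 0.23 in the FADD groups and 7.02 ± 0.22, 7.29 ± 0.17, 7.17 ± 0.18 and 7.33 ± 0.24 in the others. Rrm2 read 7.77 ± 0.29, 8.37 ± 0.38, 8.21 ± 0.27, 8.03 ± 0.35 and 7.92 ± 0.16 in the FADD groups and 7.75 ± 0.34, 7.99 ± 0.34, 7.91 ± 0.09 and 7.93 ± 0.20 in the others. In both genes the triple mutants stood above each floxed mean, by less than 1 SD of their own values for Rrm2 and for Mcm5 against Fadd fl/fl. Mcm5 passed in no comparison.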

How the data were processed

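RNA of frozen ileum was labelled with biotin and hybridised to Affymetrix whole-transcript arrays, 1 mouse per array, per the labels' protocols. The deposited values are log2 intensities. For these the submitters' processing notes name Affymetrix Expression Console and the Transcriptome Analysis Console, used by the authors. Their scale was kept, and array medians lay between 6.36 and 6.44. Of 22142 probes, 19527 carried 1 symbol and 2615 none. The probe with the highest mean stood for a gene. The precision is limited by the 5 arrays in each group.

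All 9 groups entered 1 linear model per gene in limma 3.58.1 (R 4.3.3), with 36 residual degrees of freedom, 14 comparisons and 2 interaction terms. Benjamini-Hochberg adjustment ran over all 19494 genes within a comparison. The procedure was tested on simulated data. Alternatives covered array scaling, a filter on dim genes, array weights, fits of only the groups compared, covariates for title number range, a sex index and marker means, and leaving out each mouse. Leaving out the mice whose targeted gene lay nearest the controls was chosen after seeing the data. All members may be named. Full statistics go to called members with the largest changes or, where a set had none called, to its member with the highest mean, and 5 fixed genes are given in every group. Of each other list up to 3 called genes are named. Other members are named for their values, which were seen first. The members and all lists were chosen with earlier results of these data known.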

Additional observations from a re-analysis of the deposited data

Results flagged for a closer look

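Among 72 sets of 5 mice (8 measures in 9 groups), 4 held a mouse that stood apart by Dixon's ratio, the gap to its neighbour over the range of the group, above 0.71. Chance gives about 1 in 20. The mitotic mean was -0.25 in mouse 2 of the triple mutants, against 0.02 to 0.03 in the others (ratio 0.955), and Top2a read 8.27 in the same mouse against 8.68 to 8.82 (ratio 0.758). The mitotic mean was 0.32 in mouse 5 of CASP8 IEC-KO Mlkl-/-, against 0.04 to 0.11 (ratio 0.762). The replication minus mitotic difference was 0.24 in mouse 1 of CASP8 IEC-KO, whose Casp8 level was nearest the controls, against 0.01 to 0.07 (ratio 0.72).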

How the results depend on the processing

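No direction of a called gene reversed, but of 24 calls 0 held in every alternative and 2 in every fit without 1 mouse (Tpx2 and Mki67 after ZBP1 loss). In FADD IEC-KO against Fadd fl/fl mice the 5 calls became 3 with the B cell mean as a covariate, 2 with smooth muscle, 0 with epithelium, 0 among title numbers under 100, 1 with only the groups compared and 3 without both mice whose targeted gene lay nearest the controls. Without 1 mouse they ran from 1 to 7. In CASP8 IEC-KO against Casp8 fl/fl the 4 became 0 with epithelium, 0 under 100, 0 with only the groups compared and 8 without both mice (range without 1 mouse 0 to 8). For ZBP1 loss the 7 became 15 with the number range as a covariate, 12 with epithelium, 4 with array weights, 0 under 100 and 0 with only the groups compared (2 to 18). For RIPK3 loss the 1 became 3 with number range, 2 with array weights and 0 with the sex index, epithelium, numbers under 100 or only the groups compared (0 to 3). In triple mutants against FADD IEC-KO Mlkl-/- the 5 became 9 with number range, epithelium or quantile scaling, 1 with smooth muscle, 11 with array weights and 10 with only the groups compared (1 to 7). Against CASP8 IEC-KO Mlkl-/- the 0 became 1 with smooth muscle, without dim genes, with array weights or with an intensity trend (0 to 1). In FADD IEC-KO Mlkl-/- against Fadd fl/fl the 0 became 7 with number range, 3 with quantile scaling, 2 with centred arrays, without dim genes, with array weights or with an intensity trend, and 1 with smooth muscle, only the groups compared or without both mice (0 to 2). In FADD IEC-KO Zbp1-/- against Fadd fl/fl the 1 became 0 with the B cell mean, 3 with epithelium, 0 under 100 and 0 with only the groups compared (0 to 2). In triple mutants against both floxed groups the 1 became 0 with number range or epithelium (0 to 2). The change in replication minus mitotic, FADD IEC-KO RIPK3 IEC-KO against Fadd fl/fl, was -0.0305 under 100 and 0.25 at 200 and over. TTTGAA stood in 7 mitotic genes before the start, against 16 in the whole window. Fits within a number range or of only the groups compared use fewer mice, and the cause of the other shifts was not tested. Calls over all genes were not counted in these alternatives, so whether a shift is particular to the members is not known. The sex index rests on 3 genes. No paired analysis was possible because the titles share no numbers between groups.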
